A study of Mus musculus with 6 samples.

Results

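The 10 genes described here encode 4 S100 proteins (S100a4, S100a6, S100a10 and S100a11), 4 annexins (Anxa1, Anxa2, Anxa5 and Anxa6) and 2 galectins (Lgals1 and Lgals3). They were chosen by name, as the rows of the deposited normalized table with exactly these symbols, and all 10 were found among its 13564 genes, and among the 55487 genes of the count files. RNA was sequenced from cultures of CD4N cells (naive CD4 T cells) taken from lymph nodes of C57BL/6J mice of 2 genotypes, with 3 libraries each. Foxo1TKO mice carry loxP-flanked Foxo1 alleles (Foxo1 fl/fl) and a Cre recombinase driven by Cd4, so that Foxo1 is lost from the CD4 and CD8 T-cell lineages during thymic differentiation. Foxo1Ctrl mice carry the same floxed alleles without Cre. Both genotypes are kept on a Foxp3-GFP reporter background, and the study describes the Foxo1-deficient donors of these cultures as young adults. Every culture received soluble anti-CD3 antibody (clone 145-2C11 at 0.1 µg/ml) and splenocytes of CD3eKO mice, which lack T cells and serve as antigen-presenting cells, and lasted 4 days. The labels give 50000 naive cells and 250000 splenocytes per culture, while the methods of the study give a larger number of naive cells. None of the sources used here says whether the splenocytes were removed before RNA extraction, whether mice were pooled, or whether the 3 libraries of a genotype came from different mice, so the p-values measure the spread between these libraries only.

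S100 proteins are small calcium sensors that bind their partners through paired EF hands, and S100a10 is the exception that no longer binds calcium. Annexins bind acidic phospholipids of membranes in the presence of calcium, and a dimer of S100a10 joins a pair of Anxa2 molecules into a complex that bridges membranes and the cortical cytoskeleton. Galectins bind galactose-containing glycans, outside the cell on branched glycans of surface receptors and also inside the cell. In CD4 T cells, transcripts of several of these genes are low in naive cells and rise as cells become effector or memory cells, and S100a4, S100a6, S100a10, Anxa1, Anxa2 and Lgals1 are commonly used to recognise such cells.

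The members lie on 6 chromosomes of GRCm38 (positions from GENCODE M21). The 4 S100 genes are on the plus strand of chromosome 3 in 2 groups. S100a4 (ENSMUSG00000001020) spans chr3:90603771-90606045 and S100a6 (ENSMUSG00000001025) spans chr3:90612882-90624181, inside the main S100 cluster, whereas S100a11 (ENSMUSG00000027907, chr3:93520488-93526287) and S100a10 (ENSMUSG00000041959, chr3:93555080-93564643) are neighbours elsewhere on that chromosome. Anxa5 (ENSMUSG00000027712) is also on chromosome 3, at chr3:36448923-36475894 on the minus strand. The remaining annexins are Anxa1 (ENSMUSG00000024659, chr19:20373428-20390944, minus strand), Anxa2 (ENSMUSG00000032231, chr9:69453620-69491795, plus strand) and Anxa6 (ENSMUSG00000018340, chr11:54979108-55033445, minus strand). Lgals1 (ENSMUSG00000068220) spans chr15:78926725-78930465 and Lgals3 (ENSMUSG00000050335) spans chr14:47367751-47386160, both on the plus strand. All are annotated as protein-coding. Only S100a4 and Anxa2 have exons that overlap another annotated gene, Gm42674 on the same strand with 0 counts in every library, and Gm16144 on the opposite strand with 0 to 2 counts.

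Promoter windows from 250 bases before to 50 bases after the RefSeq start (GRCm38.p6) were matched for 7 of the 10 members. No window was matched for S100a10, Anxa6 or Lgals1. Motifs were searched on both strands for a forkhead motif (GTAAACA), an AP-1 motif (TGANTCA, which reads the same on both strands) and a Kruppel-like motif (GGGTGTGG), none of which overlaps another. The AP-1 motif was in 2 of the 7 member windows, against 7.81% of 32851 windows of the same length. The forkhead motif was in 0 of the 7 against 3.65% of all windows, and the Kruppel-like motif in 0 of the 7 against 3.56%. 5 windows are printed below, 5′ to 3′ on the strand of the gene. S100a4 and S100a6, which lie in the same cluster with S100a5 between them, are shown for the largest differences between the genotypes. Anxa2 and S100a11 are shown as the windows with an AP-1 match (in capitals), and Lgals3 as the member that was higher without Foxo1.
S100a4 (chr3:90603520-90603819, plus strand): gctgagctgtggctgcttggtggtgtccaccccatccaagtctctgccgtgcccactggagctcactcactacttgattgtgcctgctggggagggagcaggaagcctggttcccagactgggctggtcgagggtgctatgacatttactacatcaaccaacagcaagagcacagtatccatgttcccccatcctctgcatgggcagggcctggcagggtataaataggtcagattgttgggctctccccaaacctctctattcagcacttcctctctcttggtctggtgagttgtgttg
S100a6 (chr3:90612644-90612943, plus strand): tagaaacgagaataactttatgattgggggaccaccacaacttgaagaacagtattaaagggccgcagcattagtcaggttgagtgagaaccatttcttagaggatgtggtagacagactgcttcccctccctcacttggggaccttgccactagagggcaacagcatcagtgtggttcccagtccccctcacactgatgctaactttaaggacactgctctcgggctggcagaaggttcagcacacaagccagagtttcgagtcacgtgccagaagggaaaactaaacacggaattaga
S100a11 (chr3:93520246-93520545, plus strand): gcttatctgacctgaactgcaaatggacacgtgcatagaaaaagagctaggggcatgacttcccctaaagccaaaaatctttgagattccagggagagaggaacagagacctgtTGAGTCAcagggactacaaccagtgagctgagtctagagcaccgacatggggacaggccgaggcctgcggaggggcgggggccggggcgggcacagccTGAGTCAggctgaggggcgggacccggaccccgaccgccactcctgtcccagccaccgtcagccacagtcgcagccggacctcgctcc
Anxa2 (chr9:69453433-69453732, plus strand): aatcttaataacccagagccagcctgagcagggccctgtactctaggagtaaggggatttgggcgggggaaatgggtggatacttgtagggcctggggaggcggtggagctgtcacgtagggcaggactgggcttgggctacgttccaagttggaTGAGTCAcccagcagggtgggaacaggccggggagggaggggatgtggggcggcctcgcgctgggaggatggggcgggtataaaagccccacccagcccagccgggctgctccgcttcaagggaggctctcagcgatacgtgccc
Lgals3 (chr14:47373610-47373909, plus strand): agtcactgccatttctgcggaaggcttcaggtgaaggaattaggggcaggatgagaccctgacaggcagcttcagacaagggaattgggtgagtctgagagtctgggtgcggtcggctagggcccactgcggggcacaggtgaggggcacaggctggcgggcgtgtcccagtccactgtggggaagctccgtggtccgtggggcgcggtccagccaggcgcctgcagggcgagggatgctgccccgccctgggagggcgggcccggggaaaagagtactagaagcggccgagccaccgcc
The match of Anxa2 began 95 bases before the start, and those of S100a11 began 136 and 38 bases before it. The RefSeq start used for Lgals3 lies inside the span that GENCODE gives for the gene. A match or its absence describes these letters only.

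Counts per library summed to between 14783853 and 19675407, and the 13691 genes that reached 10 counts in 3 or more of the libraries were compared between the genotypes with edgeR's quasi-likelihood test. Values below are counts normalized by edgeR's TMM method, in the order of replicates 1, 2 and 3, and adjusted p-values are Benjamini-Hochberg values over all genes tested. A gene was called different at an adjusted p under 0.05. Foxo1 itself was at 1529, 2285 and 1598 in the Foxo1Ctrl libraries and at 85.4, 46.5 and 115 in the Foxo1TKO libraries, a log2 fold change of -4.45 (SE 0.36, adjusted p = 0.000195), so the deleted gene followed the labels in all 6 libraries. Genotype made the larger split between libraries, with 66.4% of the variance on the first principal component. The second component (17.1%) spread the libraries within each genotype, from Foxo1TKO replicate 1 at 46.1 to replicate 3 at -38.5 and from Foxo1Ctrl replicate 1 at 29.4 to replicate 2 at -53.8.

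Of the 10 members, 7 were lower in Foxo1TKO cultures, 1 was higher and 2 were not called. Over all genes tested, 12.4% were called lower, 11.8% higher and 24.2% in either direction. The 8 called members also differed by more than 1.5-fold, and 23.0% of all genes tested were both called and past that fold (11.8% lower and 11.1% higher). The 3 Foxo1TKO values did not overlap the 3 Foxo1Ctrl values for 9 of the 10 members, 8 of them lower and 1 higher, against 42.7% of all genes (21.2% lower and 21.5% higher). The median log2 fold change of the members was -1.51, beside 0.01 for all genes tested. 3 members (S100a6, S100a4 and Anxa1) were both called and lower by over 4-fold, which was true of 3.56% of all genes tested. 9 of the 10 members reached the minimum of 10 counts in every library. S100a4 reached it in 1 of the 3 Foxo1TKO libraries and in all 3 Foxo1Ctrl libraries, and so was tested only because of the genotype in which it was high. Among the other 9 members, 6 were lower, 1 was higher and 2 were not called, with a median log2 fold change of -1.48. The members were chosen with earlier results of these data known. Their counts and medians, set beside those of all genes, are therefore a description and not a test. In these bulk cultures, fewer cells with a transcript and less of that transcript per cell cannot be told apart.

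**Figure D1:**
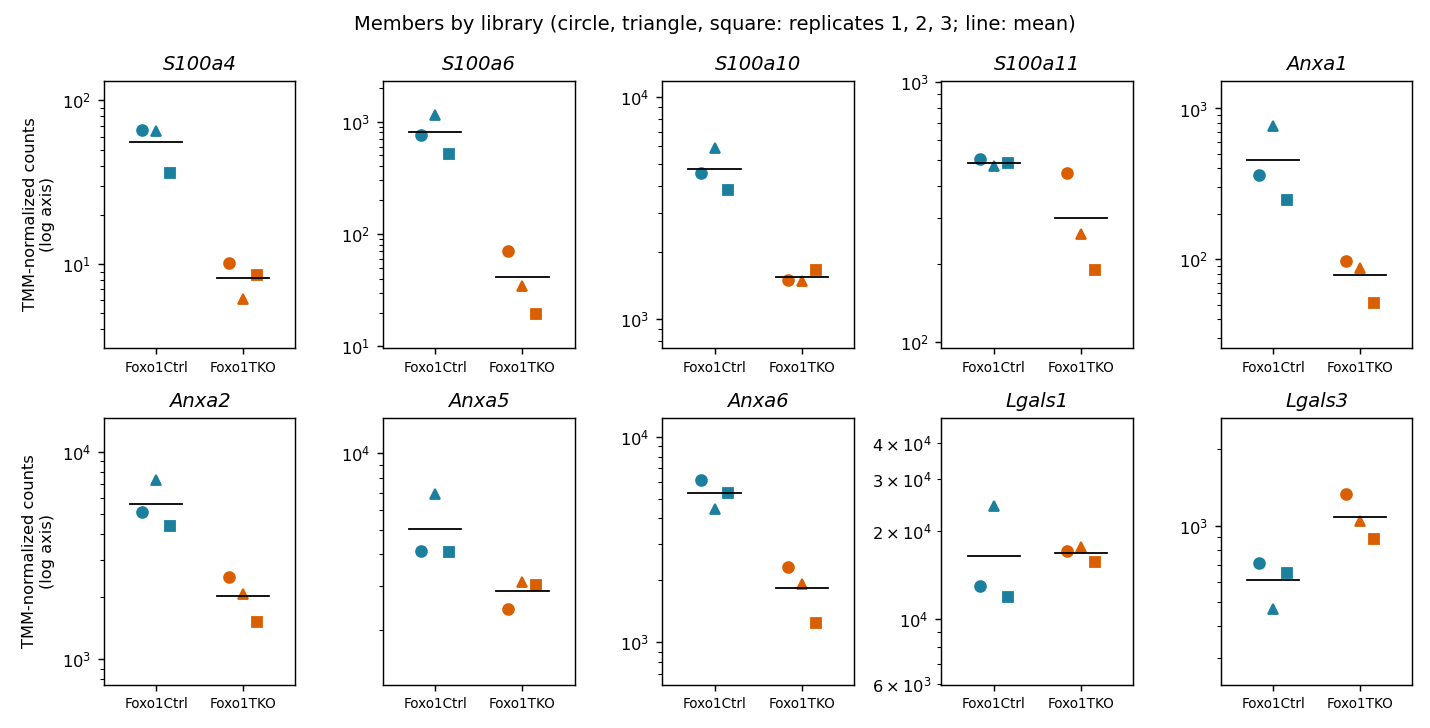
TMM-normalized counts of each member on a log axis (a separate axis for each gene), for the 3 Foxo1Ctrl (blue) and 3 Foxo1TKO (orange) libraries, with the mean as a line and replicates 1, 2 and 3 as circle, triangle and square. The genotypes overlap only for Lgals1, where Foxo1Ctrl replicate 2 at 24374 lies above all Foxo1TKO libraries and the other two Foxo1Ctrl libraries lie below them, and Lgals3 is the member that lies higher in Foxo1TKO.

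Among the S100 genes, S100a6, also called calcyclin, changed most. It was at 761, 1148 and 514 in Foxo1Ctrl libraries (807 ± 319.9, SD, n = 3) and at 70.1, 34.2 and 19.3 in Foxo1TKO libraries (41.2 ± 26.1). Every Foxo1TKO library was thus far below the lowest Foxo1Ctrl library, and the spread within Foxo1TKO, 3.63-fold from the lowest to the highest library, was the widest of any member. The log2 fold change was -4.24 (SE 0.50, adjusted p = 0.00106), a fall of 18.9-fold, and only 0.621% of the genes tested had a lower log2 fold change. Leaving out any 1 library gave between -4.86 and -3.88, with the call kept each time.

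S100a4, a binding partner of non-muscle myosin that is used as a marker of memory T cells, was much less abundant than S100a6. Its normalized counts were 65.6, 65.2 and 35.8 in Foxo1Ctrl libraries and 10.1, 6.14 and 8.59 in Foxo1TKO libraries. The groups were well apart, but the Foxo1TKO values rest on 12, 7 and 8 counts, and S100a4 passed the count minimum only through the Foxo1Ctrl libraries, so its call is given as a description. S100a4 was 6.07-fold lower in Foxo1TKO (log2 fold change -2.60, SE 0.40, adjusted p = 0.00315) and was called lower in each of the 6 fits made without 1 library.

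S100a10, the partner of Anxa2, was the most abundant S100 member. It was at 4575, 5918 and 3825 in Foxo1Ctrl libraries and at 1504, 1479 and 1660 in Foxo1TKO libraries. The Foxo1TKO libraries lay within 1.12-fold of each other, and all were below the lowest Foxo1Ctrl library. The difference was 3.08-fold (log2 fold change -1.62, SE 0.19, adjusted p = 0.000972), called in each of the 6 fits made without 1 library.

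S100a11, which binds Anxa1 and other annexins, did not pass the test. It was at 506, 475 and 490 in Foxo1Ctrl libraries and at 449, 261 and 189 in Foxo1TKO libraries. In TMM-normalized counts the Foxo1Ctrl libraries were within 1.07-fold of each other, while Foxo1TKO replicate 1 lay just below them and replicates 2 and 3 well below. In TPM the genotypes overlapped, since Foxo1TKO replicate 1 was at 94.5 and Foxo1Ctrl replicate 2 at 76.8. Its log2 fold change was -0.71 (SE 0.31, adjusted p = 0.136). Without Foxo1TKO replicate 1 it was -1.13 with an adjusted p of 0.0137, and without Foxo1TKO replicate 3 it was -0.46 with an adjusted p of 0.285. S100a11 was the only member whose expected counts were not whole numbers, in all 6 libraries, so some of its reads were shared with other features, and the annotated copy S100a11-ps had at most 1 count.

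The 4 annexins were all lower in Foxo1TKO cultures. Anxa1, an anti-inflammatory annexin that signals through formyl peptide receptors, was at 362, 760 and 249 in Foxo1Ctrl libraries and at 97.2, 87.7 and 51.5 in Foxo1TKO libraries. The Foxo1Ctrl libraries differed by 3.05-fold among themselves, more than for any other member, with replicate 2 the highest, and still did not reach down to the Foxo1TKO values. Anxa1 had a log2 fold change of -2.52 (SE 0.45, adjusted p = 0.00598) and was called lower in each of the 6 fits made without 1 library.

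Anxa2 was at 5154, 7304 and 4408 in Foxo1Ctrl libraries and at 2485, 2060 and 1504 in Foxo1TKO libraries, 2.79-fold lower (log2 fold change -1.48, SE 0.25, adjusted p = 0.00501). Anxa6, the annexin with a doubled core that is found at the plasma membrane and endosomes, was at 6176, 4438 and 5324 in Foxo1Ctrl libraries and at 2333, 1912 and 1244 in Foxo1TKO libraries. It was 2.90-fold lower (log2 fold change -1.54, SE 0.25, adjusted p = 0.0039). For both genes the highest Foxo1TKO library, replicate 1, stayed well below the lowest Foxo1Ctrl library, and both were called in each of the 6 fits made without 1 library.

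Anxa5, which binds phosphatidylserine and is widely used as a probe for dying cells, showed the smallest annexin difference. It was at 4097, 6916 and 4073 in Foxo1Ctrl libraries and at 2434, 3110 and 3018 in Foxo1TKO libraries. The groups did not overlap, and Foxo1Ctrl replicate 2 stood above the other two Foxo1Ctrl libraries. The log2 fold change was -0.82 (SE 0.24, adjusted p = 0.0399). The call was lost without Foxo1TKO replicate 1 (adjusted p = 0.107), 2 (0.106) or 3 (0.0882) and with limma on the deposited normalized signal (0.057). Without Foxo1Ctrl replicate 2 the log2 fold change was -0.51 and remained called (adjusted p = 0.0364).

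The galectins did not follow the S100 genes and annexins. Lgals1, which encodes galectin-1 and was the most abundant member, was at 12894, 24374 and 11884 in Foxo1Ctrl libraries and at 17122, 17579 and 15700 in Foxo1TKO libraries. The 3 Foxo1TKO libraries lay close together, between the single high Foxo1Ctrl library, replicate 2, and the other two. The log2 fold change was 0.04 (SE 0.27, adjusted p = 0.941), and its direction depended on the libraries used. It was -0.12 without Foxo1Ctrl replicate 1, -0.15 without Foxo1Ctrl replicate 3, and 0.46 without Foxo1Ctrl replicate 2, the only one of these that was called (adjusted p = 0.0343). With a correction for the GC content of transcripts, chosen after seeing the data, it was -0.13 (adjusted p = 0.833).

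Lgals3, which encodes the chimeric galectin-3 whose tail lets it form oligomers, was the only member called higher. It was at 709, 469 and 652 in Foxo1Ctrl libraries and at 1335, 1039 and 883 in Foxo1TKO libraries. All Foxo1TKO libraries were above all Foxo1Ctrl libraries. Its log2 fold change was 0.83 (SE 0.23, adjusted p = 0.0317), a 1.78-fold rise. The call was kept without Foxo1TKO replicate 3 (adjusted p = 0.0361) but not without Foxo1TKO replicate 1 (0.0817) or 2 (0.086), nor without Foxo1Ctrl replicate 1 (0.0536), 2 (0.0552) or 3 (0.0753), although the log2 fold change stayed between 0.64 and 0.96.

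**Figure D2:**
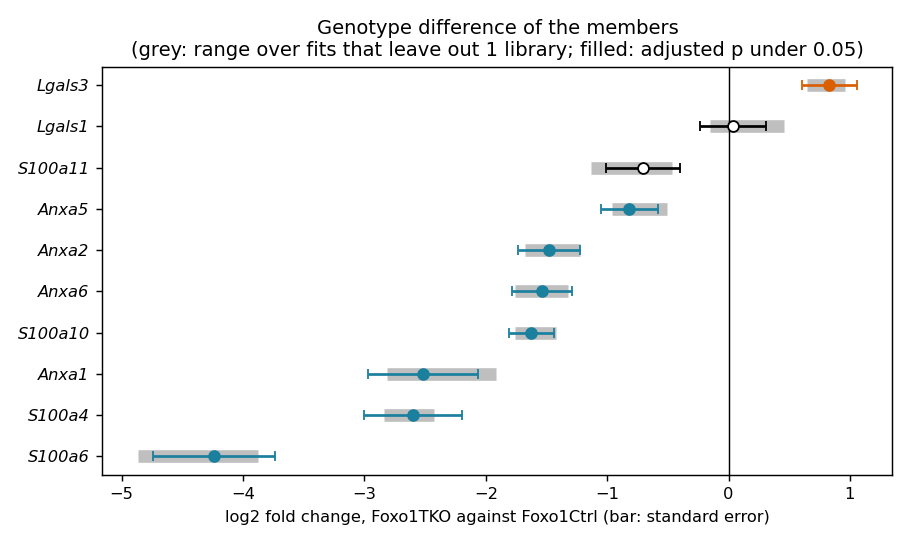
Log2 fold change of each member, Foxo1TKO against Foxo1Ctrl, with its standard error as the bar and, in grey, the range over the 6 fits made without 1 library, filled points being called at an adjusted p under 0.05. The members run from S100a6 at -4.24 to Lgals3 at 0.83, and the grey range crosses 0 only for Lgals1.

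The levels of the members could be compared with each other only per length, in TPM (RSEM's count per effective length, scaled to the same total in every library). In Foxo1Ctrl libraries the order of mean TPM was Lgals1 (1620 ± 485, SD, n = 3), S100a10 (582 ± 69.9), Anxa2 (278 ± 44.3), Anxa5 (214 ± 46.8), Anxa6 (150 ± 37.4), S100a6 (111 ± 32.6), S100a11 (91.1 ± 12.5), Lgals3 (43.4 ± 13.8), Anxa1 (20.3 ± 9.24) and S100a4 (10.9 ± 2.64). Neighbours in this order overlapped between libraries for Anxa2 and Anxa5, for Anxa6, S100a6 and S100a11, and for Lgals3, Anxa1 and S100a4 in turn. In Foxo1TKO libraries Lgals1 (1790 ± 222) and S100a10 (198 ± 12.5) were still first and next, followed by Anxa5 (128 ± 10.7), Anxa2 (107 ± 35.1), Lgals3 (78.9 ± 23.3), S100a11 (59.2 ± 31.5) and Anxa6 (53.9 ± 20.3), among which every neighbour overlapped. S100a6 (6.31 ± 4.57), Anxa1 (3.97 ± 1.08) and S100a4 (1.67 ± 0.51) came last, all below the 33.2 TPM of the lowest Anxa6 library.

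Summed over the 10 members, TPM was 2941, 3811 and 2617 in Foxo1Ctrl libraries and 2746, 2450 and 2078 in Foxo1TKO libraries, so that these ranges overlapped. Lgals1 alone held 47.5%, 57.2% and 49.3% of that sum in Foxo1Ctrl libraries and 72.2%, 74.8% and 74.4% in Foxo1TKO libraries. The 4 S100 members together fell from between 688 and 872 TPM to between 236 and 319 TPM, and the 4 annexins from between 590 and 732 TPM to between 237 and 339 TPM. These sums describe the members and were not tested.

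**Figure D3:**
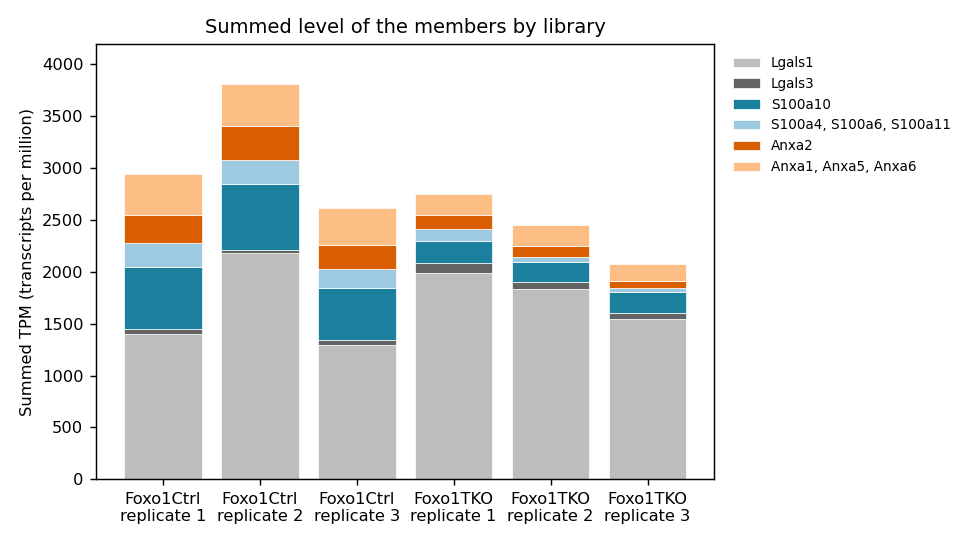
Summed TPM of the members in each library, stacked from 0, with Lgals1 in light grey, Lgals3 in dark grey, S100 genes in blues and annexins in oranges. The coloured S100 and annexin parts shrink in all 3 Foxo1TKO libraries, while Lgals1 makes up 72.2% to 74.8% of the bar there and 47.5% to 57.2% in Foxo1Ctrl libraries.

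The order of the libraries within a genotype is given as a description, without a test. Foxo1TKO replicate 1 had the highest normalized count of its genotype for 7 of the 10 members, and Foxo1TKO replicate 3 the lowest for 7. Among Foxo1Ctrl libraries, replicate 2 was the highest for 6 members (S100a6, S100a10, Anxa1, Anxa2, Anxa5 and Lgals1) and the lowest for the 3 members S100a11, Anxa6 and Lgals3. Foxo1Ctrl replicate 3 was the lowest for the remaining 7. Foxo1TKO replicates 1 and 3 and Foxo1Ctrl replicate 2 also stood at the ends of the second principal component within their genotypes. Over 13679 genes, the deviation of a library from the mean of its genotype also followed transcript GC content, with a correlation across genes of 0.332 for Foxo1TKO replicate 1 and -0.358 for Foxo1Ctrl replicate 2, given as a description since genes are not independent replicates. With the GC correction the same 7 members were called lower and Lgals3 higher (adjusted p = 0.00543).

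Ratios of TPM within each library were compared for 3 pairs by a two-sided exact permutation test, in which 3 libraries against 3 cannot give a p under 0.1. The S100a10 to Anxa2 ratio, for the subunits of one complex, was 2.18, 1.98 and 2.15 in Foxo1Ctrl libraries and 1.48, 1.76 and 2.73 in Foxo1TKO libraries. The Foxo1TKO ratios thus lay on both sides of the narrow Foxo1Ctrl range, with a log2 difference of -0.13 (exact p = 0.7, adjusted p = 0.7 over the 3 pairs). The S100a6 to S100a4 ratio was 8.42, 12.8 and 9.67 in Foxo1Ctrl libraries and 5.15, 4.03 and 1.66 in Foxo1TKO libraries. All Foxo1TKO ratios were lower, by 3.11-fold between the geometric means (exact p = 0.1, the smallest possible, adjusted p = 0.3). These Foxo1TKO ratios rest on 12, 7 and 8 counts of S100a4, and that of replicate 3 also on 18 counts of S100a6. The Lgals3 to Lgals1 ratio was 0.0389, 0.0128 and 0.0372 in Foxo1Ctrl libraries and 0.0528, 0.0397 and 0.0384 in Foxo1TKO libraries. These overlapped in that Foxo1TKO replicate 3 fell below Foxo1Ctrl replicate 1, and the log2 difference was 0.70 (exact p = 0.2, adjusted p = 0.3). Without Foxo1Ctrl replicate 2 the difference was 0.18. None of the 3 pairs could pass the threshold in this design.

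**Figure D4:**
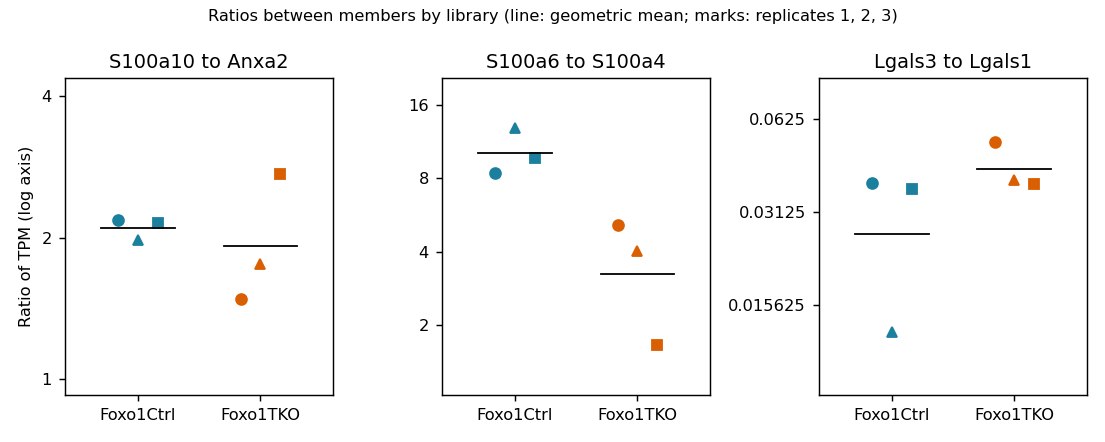
Ratio of TPM between paired members in each library, on log axes with a separate scale for each pair, for Foxo1Ctrl (blue) and Foxo1TKO (orange), with the geometric mean as a line and replicates 1, 2 and 3 as circle, triangle and square. The S100a6 to S100a4 ratios of the 3 Foxo1TKO libraries, 1.66 to 5.15, lie below the Foxo1Ctrl range of 8.42 to 12.8, while the other pairs overlap. Those Foxo1TKO ratios rest on 7 to 12 counts of S100a4 per library.

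Listed genes from the rest of the 3 families were then examined. Of 12 other S100 genes, 3 passed the count minimum and 0 were called by edgeR's quasi-likelihood test, by DESeq2 or by limma, with 1 (S100a13) at an unadjusted p under 0.05. S100a13, the most abundant of them, was at 3096, 5852 and 2883 in Foxo1Ctrl libraries and at 2017, 2640 and 2776 in Foxo1TKO libraries (log2 fold change -0.67, SE 0.29, adjusted p = 0.133). S100a3, which lies next to S100a4, had a log2 fold change of -1.15 (SE 0.69, adjusted p = 0.271), and S100a1 one of 0.07 (SE 0.41, adjusted p = 0.918). Along chromosome 3, the called genes S100a4 and S100a6 thus lie among S100 genes that were not called or were hardly detected. S100a2, in the same cluster, was not on the list and had a mean of 0.8 counts per library. S100a8 and S100a9, which are abundant in neutrophils, were at 11.8 and 8.77 and at 11.8 and 2.63 in Foxo1TKO replicates 1 and 2, and at 0 in the other 4 libraries. S100a7a, S100a14 and S100a16 had 0 counts in every library.

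Of 8 other annexins, the 5 that passed the count minimum (Anxa3, Anxa4, Anxa7, Anxa9 and Anxa11) were not called by edgeR (0 at an unadjusted p under 0.05), DESeq2 or limma, their log2 fold changes running from -0.47 for Anxa7 to 0.42 for Anxa11. Of 8 other galectin genes, 7 were in the count files and 5 were tested. Lgalsl, which encodes a galectin-like protein that does not bind lactose, rose from 119, 150 and 154 in Foxo1Ctrl libraries to 287, 305 and 181 in Foxo1TKO libraries (log2 fold change 0.87, SE 0.26, adjusted p = 0.0452), a call kept in 1 of the 6 fits made without 1 library. Lgals8, a galectin with a pair of sugar-binding domains, was at 1569, 2222 and 1620 and at 957, 1206 and 1317, without overlap and just short of a call (log2 fold change -0.64, SE 0.20, adjusted p = 0.0511). It was called lower by DESeq2 (adjusted p = 0.0309) and limma (0.0446), and with no filter (0.0489), the replicate block (0.0386) or the GC correction (0.0267). Lgals7 was at 29.8, 50.3 and 36.8 and at 161, 57.0 and 66.5 (log2 fold change 1.27, SE 0.46, adjusted p = 0.0811; DESeq2 called it, adjusted p = 0.0386), and Lgals4 and Lgals9 overlapped between the genotypes. With the members included, calls were 3 lower of 7 tested S100 genes, 4 lower of 9 tested annexins, and 2 higher of 7 tested galectin genes, beside 12.4% lower and 11.8% higher of all genes tested. The lower S100 genes include S100a4, which passed the count minimum only through the Foxo1Ctrl libraries.

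Of 16 genes on a list of binding partners, 12 were tested, with 2 higher, 3 lower and 7 not called by edgeR. Over all genes tested, 11.8% were higher and 12.4% lower. The list also holds Mgat5, an enzyme that builds glycans bound by galectins and is not itself a binding partner. Ahnak, the giant scaffold protein that the S100a10 and Anxa2 complex binds, was at 1601, 1903 and 1284 in Foxo1Ctrl libraries and at 713, 668 and 454 in Foxo1TKO libraries. It was lower with no overlap of normalized counts (log2 fold change -1.38, SE 0.23, adjusted p = 0.00432). On scales that account for effective length the difference was smaller, as limma on the deposited normalized signal gave -0.79 (adjusted p = 0.103) and TPM overlapped, at 6.44 in Foxo1TKO replicate 1 and 6.40 in Foxo1Ctrl replicate 3. Ager, the cell-surface receptor RAGE that binds several S100 proteins, was lower as well, at 150, 76.6 and 114 against 37.2, 22.8 and 34.3 (log2 fold change -1.82, SE 0.35, adjusted p = 0.00817). Plat, the plasminogen activator that binds the S100a10 and Anxa2 complex, did not pass the count minimum, with 41.7, 11.4 and 6.78 in Foxo1Ctrl libraries and 0 in all Foxo1TKO libraries. Cacybp, the calcyclin-binding protein named for its binding to S100a6, moved the other way to S100a6, from 2059, 2719 and 2179 to 3816, 4220 and 4904 (log2 fold change 0.90, SE 0.17, adjusted p = 0.00781).

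On the galectin side, Mgat5, the glycosyltransferase that adds the branch on which galectin-binding sugar chains grow, changed most among the tested genes of this list. It rose from 212, 200 and 296 in Foxo1Ctrl libraries to 1782, 1193 and 1150 in Foxo1TKO libraries, with no overlap (log2 fold change 2.54, SE 0.25, adjusted p = 0.000479). Ptprc, which encodes CD45, a glycoprotein bound by galectin-1, was at 86245, 83830 and 84480 and at 53279, 61925 and 55103 (log2 fold change -0.58, SE 0.15, adjusted p = 0.0242), a call kept in 1 of the 6 fits made without 1 library. The other tested partners, Myh9, Sugt1, Lgals3bp, Spn, Itgb1, Pdcd6 and Pdcd6ip, were not called by edgeR. Spn, which encodes the sialoglycoprotein CD43, had a log2 fold change of -0.57 (adjusted p = 0.0577) and was called lower by DESeq2 (adjusted p = 0.0415) and limma (adjusted p = 0.043).

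A list of 12 genes, most of them cytoskeletal, that are often read together with these members in effector and memory T cells was also examined. Emp3, a membrane protein, and Capn2, a protease, are among its other genes. All 12 were tested, with 1 higher, 3 lower and 8 not called by edgeR. Over all genes tested, 24.2% were called, so the share of this list was near the background. Vim, the intermediate filament vimentin, was at 3142, 4048 and 2656 in Foxo1Ctrl libraries and at 1241, 976 and 642 in Foxo1TKO libraries (log2 fold change -1.78, SE 0.27, adjusted p = 0.00291). Lmna, which encodes the nuclear lamins A and C, was in the opposite direction, at 65.6, 54.9 and 61.0 against 412, 375 and 408 (log2 fold change 2.70, SE 0.20, adjusted p = 0.000142). Both calls were kept in each of the 6 fits made without 1 library. Crip1, a small LIM-domain protein, and Lsp1, an actin-binding protein of leukocytes, were lower by 0.55 and 0.53 on the log2 scale (adjusted p = 0.0377 and 0.0331), calls kept in 2 and 1 of these 6 fits.

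**Figure D5:**
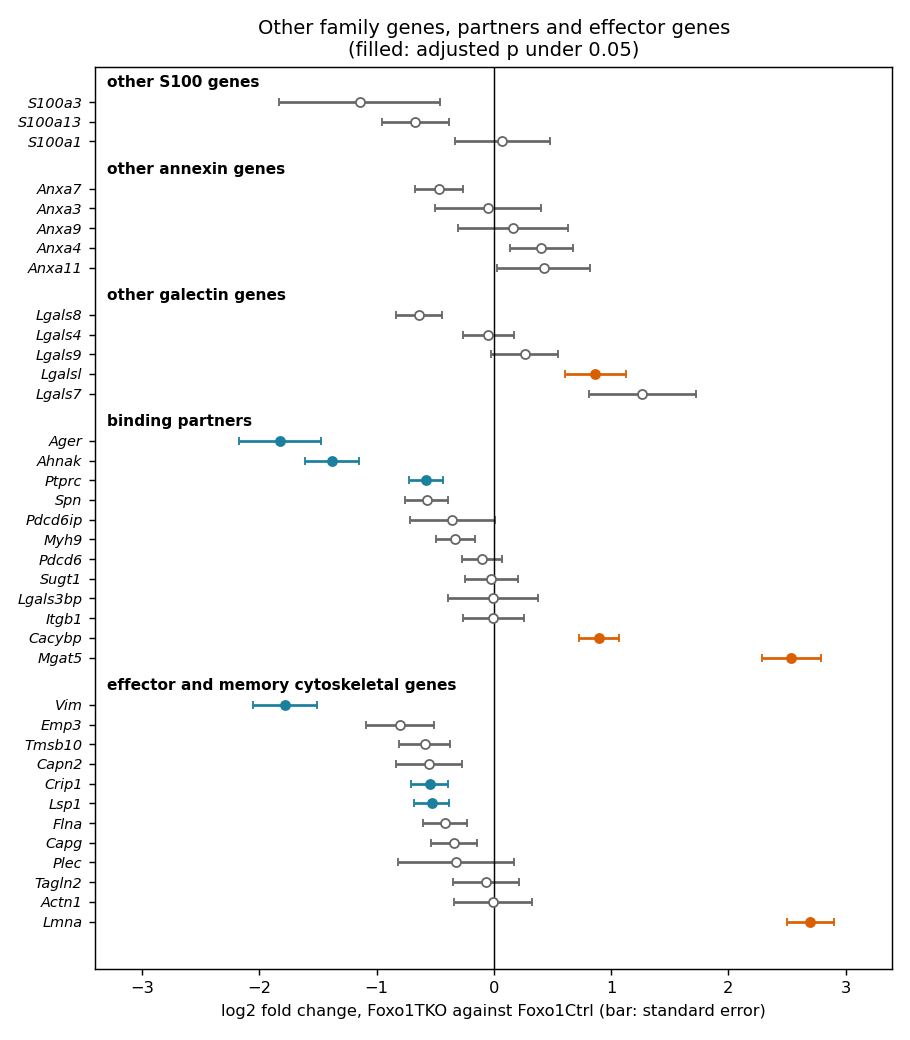
Log2 fold change with its standard error, Foxo1TKO against Foxo1Ctrl, filled points being called at an adjusted p under 0.05. The tested genes are those of the other S100, annexin and galectin genes, of the list of binding partners and of the effector and memory cytoskeletal list. None of the other S100 and annexin genes is filled, and the points farthest from 0 among the called genes are Ager at -1.82 and Vim at -1.78 on the left and Mgat5 at 2.54 and Lmna at 2.70 on the right.

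Markers of the other cells that a culture could hold were summed beside these results. The 8 T-cell markers summed to between 9030 and 9210 TPM in Foxo1Ctrl libraries and between 8390 and 9100 TPM in Foxo1TKO libraries, with 1 of 8 called (Cd28, lower). The 8 B-cell markers summed to between 23.9 and 30.7 TPM in Foxo1Ctrl libraries and between 7.36 and 10.1 TPM in Foxo1TKO libraries, and 3 of 6 tested were lower (Cd79a, Cd79b and Ms4a1), in the direction of the S100 genes and annexins. The 10 macrophage and monocyte markers, cells in which Lgals3 is abundant, went from between 2.63 and 4.29 TPM to between 4.69 and 6.03 TPM, in the direction of Lgals3, with 0 of 2 tested called by edgeR (1, Cd68, at an unadjusted p under 0.05) and C1qa at 0 counts throughout. Cd68 made up most of this sum, at 2.37 to 2.94 TPM in Foxo1Ctrl libraries and 4.17 to 4.92 TPM in Foxo1TKO libraries. Other markers of the list lay in the opposite direction, Itgam with a log2 fold change of -1.11 (adjusted p = 0.16) and Cd14 at 8.35, 1.14 and 6.78 normalized counts in Foxo1Ctrl libraries and 0 in all Foxo1TKO libraries. Neutrophil markers summed to between 0.06 and 0.31 TPM in Foxo1Ctrl libraries and between 0.84 and 2.02 TPM in Foxo1TKO libraries, with Retnlg at 0. Ltf, the only tested marker of these 8, was called higher (0 in all Foxo1Ctrl libraries, and 10.5 to 16.9 in Foxo1TKO libraries). It passed the count minimum only through the Foxo1TKO libraries, so its call is given as a description. Mpo, Elane and Camp were also counted only in Foxo1TKO libraries, and Ly6g, Mmp8 and Csf3r only in Foxo1Ctrl libraries. Dendritic-cell and NK-cell sums overlapped between the genotypes, with Cd209a and Klra8 at 0. The 8 proliferation genes summed to between 197 and 288 TPM in Foxo1Ctrl libraries and between 214 and 313 TPM in Foxo1TKO libraries. Of these genes, 2 were called higher (Top2a and Cdk1) and 6 were not called. Over all genes tested, 11.8% were called higher and 24.2% in either direction. Mki67 and Birc5 had log2 fold changes below 0 (-0.12 and -0.41), and Ccnb1, Ccna2, Plk1 and Aurkb above 0. The part of B-cell, macrophage, neutrophil or dividing cells in the differences of the members was not tested.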

How the data were processed

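RNA-seq of 3 Foxo1TKO and 3 Foxo1Ctrl cultures was analysed, grouped by the genotype in the sample titles. The authors aligned reads with STAR 2.7.6a to GRCm38, allowing up to 10 loci per read, and counted with RSEM 1.3.1. They deposited expected counts (not normalized) and TPM per gene with effective lengths, the TPM being scaled to a fixed total per library. A normalized signal table was deposited as well. Up to a constant factor common to all values, it matched the rounded expected counts divided by DESeq2 size factors and relative effective length. This held for 100% of its values above 0 (within 0.1%). Strandedness is not given in the sources used here.

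Expected counts were rounded, genes with at least 10 counts in 3 libraries were kept (13691), and genotypes were compared with edgeR 4.0.16 (TMM, glmQLFit, glmQLFTest, prior count 1, R 4.3.3), adjusted by the Benjamini-Hochberg method. The edgeR step was tested on simulated data. Alternatives were DESeq2 1.42.0, its size factors in edgeR, no filter, filterByExpr, limma 3.58.1 on log2(deposited signal + 1), a replicate block, each library left out and, chosen after seeing the data, a GC correction. Annotation was GENCODE M21 (55141 of 55487 identifiers matched), and promoter sequences were from RefSeq (GRCm38.p6). Ratios were compared by exact permutation of TPM (scipy 1.17.1).

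Named genes are Foxo1, the members, called genes of the family, partner and cytoskeletal lists, and others where a count of 5 or fewer needed them. The members and lists were chosen with earlier results of these data known.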

Additional observations from a re-analysis of the deposited data

How the results depend on the processing

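The 7 lower calls and the 1 higher call among the members were kept under DESeq2, DESeq2 size factors in edgeR, no filter, filterByExpr and the GC correction, and limma on the deposited signal lost Anxa5 (adjusted p = 0.057). Leaving out each library in turn gave 6 to 7 members called lower and 0 to 1 called higher, against 874 to 1877 genes called higher (1613 with all libraries) and 980 to 1727 called lower (1695). The smallest counts came without Foxo1TKO replicate 2 (874 and 980), and without Foxo1Ctrl replicate 1 they were 942 and 1090. The members behind the counts also changed. Without Foxo1TKO replicate 1, S100a11 was called lower and Anxa5 was not. Without Foxo1Ctrl replicate 2, Lgals1 was called higher and Lgals3 was not. The log2 fold change of Lgals1 ran from -0.149 to 0.455 with a library left out. Its direction turned with the GC correction (-0.127) and without Foxo1Ctrl replicate 1 (-0.123) or 3 (-0.149). The cause was not tested. The log2 difference of the S100a10 to Anxa2 ratio ran from -0.379 to 0.062 with a library left out, the last without Foxo1TKO replicate 1. Among the other galectin genes, the number called higher was 2 under DESeq2, 0 under limma, 0 with the replicate block and 0 to 1 with a library left out, and the number called lower was 1 (Lgals8 each time) under DESeq2, no filter, limma, the replicate block and the GC correction, against 0 in the main comparison. Other annexins gave 0 to 1 higher and 0 to 1 lower calls, and the cytoskeletal list 1 to 3 lower calls, with a library left out. Among the partners, 4 were lower under DESeq2 (Spn added) and no filter (Plat added), and 2 with the GC correction (Ptprc lost). In the cytoskeletal list, 4 were lower under DESeq2 (Emp3 added) and 2 under no filter, limma, the replicate block and the GC correction. The log2 difference of the Lgals3 to Lgals1 ratio ran from 0.181, without Foxo1Ctrl replicate 2, to 0.982, and with TMM counts in place of TPM it was 0.719 (exact p = 0.1). Deviations of same-numbered libraries of the genotypes had correlations of 0.432, 0.198 and -0.109, and Foxo1TKO replicate 3 correlated best with Foxo1Ctrl replicate 2 (0.301). The main comparison did not take the numbers as pairs. These correlations cannot settle pairing, since the deviations also followed transcript GC content. The study paired its flow-cytometry comparisons of such cultures by experiment. Whether the sequenced libraries were paired is not stated in the sources used here. With the replicate number as a block no call among the members changed, Lgalsl and Crip1 were no longer called, and 1710 genes were called higher and 1718 lower. With 3 libraries per genotype, differences near the size of those of Anxa5, Lgals3 and S100a11 depend on single libraries, and 7 to 12 counts of S100a4 per Foxo1TKO library limit its precision.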
